A study of Mus musculus with 8 samples.

Results

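The cytosolic ribosomal proteins were followed in mouse macrophages that had been grown in culture from marrow precursors. The members were the genes whose symbols follow the Rps and Rpl naming pattern, the Rplp stalk proteins and Rpsa. The rule used names only, and it took 83 of the 17492 genes listed, 32 of the small subunit and 51 of the large subunit. Of the 83, 77 encode core proteins and 6 are paralogs (Rpl3l, Rpl7l1, Rpl10l, Rpl22l1, Rpl39l and Rps27l). The 4 NSG libraries came from C57BL/6 cells whose medium lacked serine and glycine, and the 4 SG libraries from C57BL/6 cells in normal medium, labelled untreated. The labels give no age, sex, duration or stimulus, and do not state if a group's libraries stem from different cultures or mice. The p-values therefore reflect only how far these libraries scatter, and that scatter may be technical. In bulk RNA, fewer cells of a type and less RNA per cell cannot be told apart.

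A ribosome consists of a small subunit, which reads the codons, and a large subunit, which joins amino acids. Each subunit holds ribosomal RNA and a fixed set of proteins, so the proteins are needed in nearly equal numbers. Their messenger RNAs typically start with a C followed by a run of pyrimidines, the 5′ terminal oligopyrimidine (TOP) motif, through which mTORC1 and the RNA-binding protein LARP1 set how strongly they are translated. Serine supplies one-carbon units for purine synthesis and is the source of glycine. Ribosomal proteins also have many processed pseudogene copies in mammalian genomes, which matters for how reads are assigned.

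The sequence around annotated starts was searched for such runs, which most members with a matched window lacked at the exact annotated start. RefSeq windows (GRCm38.p6) from 250 bases before to 50 bases after the start were matched for 63 of the 83 members, with 75 windows in all. A run of at least 8 C or T bases touched the 20 bases on either side of the start in 46.7% of member windows and in 20.98% of all 32841 windows. A C followed by 4 further C or T bases exactly at the start, which overlaps with the first pattern, was found in 17.3% of member windows and in 2.503% of all. On either strand and anywhere in the window, CCGGAAG, a core bound by ETS family factors, was in 36.0% of member windows and 8.86% of all. AAGATGGC, part of the motif of YY1, was in 10.7% and 2.75%, and TATAAA was in 9.33% and 13.6%. The following windows hold 35 bases before and 25 from the start on, with the longest pyrimidine run near the start in capitals. They are shown for members that passed the test in each direction (Rpl7a and Rps9 lower, Rpl35a and Rps13 higher) and for Rpl38, which had the largest positive value without passing. Where a gene had several windows, the one with the longest run is given.
Rpl7a: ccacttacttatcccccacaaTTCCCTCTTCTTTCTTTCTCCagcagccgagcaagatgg
Rps9: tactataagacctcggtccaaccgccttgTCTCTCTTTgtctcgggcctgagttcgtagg
Rpl35a: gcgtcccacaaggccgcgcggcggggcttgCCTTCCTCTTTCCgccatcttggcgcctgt
Rps13: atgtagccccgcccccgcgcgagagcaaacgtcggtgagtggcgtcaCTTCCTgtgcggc
Rpl38: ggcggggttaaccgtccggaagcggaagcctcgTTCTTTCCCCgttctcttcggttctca
They lie at chr2:26910772-26910831 (plus strand), chr7:3704006-3704065 (plus), chr16:33056447-33056506 (plus), chr7:116334166-116334225 (minus) and chr11:114668545-114668604 (plus), in the order listed. A run of 21 pyrimidines spans the start of Rpl7a, which was lower, and one of 13 spans that of Rpl35a, which was higher. The annotated genes of Rpl7a, Rps9 and Rpl38 begin before the windows shown, and those of Rpl35a and Rps13 begin within them. The exact base of the start is thus uncertain, and with it the count of patterns exactly at the start. A match or its absence says only which letters stand in these windows.

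Sequence also sets a limit on what some members' counts mean. In 9 pairs, a transcript of a member aligned over at least 300 bases with at least 95% identity to another row of the table. The coding bases below come from the reference transcripts of the same build, with differences in capitals. For Rps6 they are coding bases 1 to 60, for Rpl37 bases 219 to 278 and for Rpl34 bases 102 to 161, each followed by the matching stretch of its copy.
Rps6: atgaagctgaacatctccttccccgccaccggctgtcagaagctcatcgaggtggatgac
Rps6-ps4: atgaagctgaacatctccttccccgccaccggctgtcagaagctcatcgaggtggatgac
Rpl37: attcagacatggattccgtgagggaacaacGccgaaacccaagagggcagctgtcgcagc
Rpl37rt: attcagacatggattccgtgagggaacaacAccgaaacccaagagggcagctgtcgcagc
Rpl34: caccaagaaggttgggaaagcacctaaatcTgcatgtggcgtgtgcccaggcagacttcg
Rpl34-ps1: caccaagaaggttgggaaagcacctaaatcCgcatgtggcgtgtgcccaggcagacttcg
Rps6 (chr4:86854099-86857367) and the transcribed pseudogene Rps6-ps4 (chr2:75190995-75191854, listed as LOC105244208) were identical over all 750 aligned bases. Rpl37 and Rpl37rt differed at 1 coding base and Rpl34 and Rpl34-ps1 at 2, so reads from these stretches mostly match both loci. The other pairs were Rpl10 with Gm5621, Rpl21 with BC004004 and Gm10045, Rpl30 with Gm7429, Rpl31 with Rpl31-ps12 and Rplp2 with Wdr89.

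Library totals lay between 17565291 and 18201599 estimated counts, and all 12 pairs of libraries within groups differed by more than counting noise. Macrophage markers (8 of 8 detected) summed to between 18899 and 19174 CPM (counts scaled to a common library total) in NSG libraries and between 18919 and 19371 CPM in SG libraries. Within these sums single markers went both ways. Mean CPM in NSG and SG was 1110 and 1695 for Itgam and 4849 and 5763 for Adgre1, with Fcgr1 and Cd14 also lower in NSG. It was 9994 and 9107 for Lyz2 and 1258.5 and 946 for Csf1r, with Cd68 and Mertk also higher in NSG. Markers of B cells summed to 32.1 to 38.9 CPM in NSG and 43.5 to 51.3 CPM in SG, nearly all from Cd79b. Those of endothelial cells summed to 51.8 to 56.4 CPM in NSG and 63.9 to 73.0 CPM in SG, nearly all from Pecam1. Neutrophil markers summed to 2.05 to 2.39 CPM in NSG and 0.772 to 1.17 CPM in SG. The 5 other marker lists (dendritic cells, T and NK cells, fibroblasts, erythroid cells, and mast cells with basophils) summed to at most 3.34 CPM in any NSG library and 3.03 CPM in any SG library. The part of these markers in the results was not tested.

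Ribosomal protein transcripts made up a similar share of the messenger RNA in both groups. They took 3.49%, 3.34%, 3.504% and 3.66% of estimated counts in NSG1 to NSG4, against 3.52%, 3.36%, 3.35% and 3.499% in SG1 to SG4. The ranges overlapped, and the means were 3.498% ± 0.129 in NSG and 3.43% ± 0.0897 in SG (SD, n = 4 each). Counted per transcript length (TPM), the share was 10.9% ± 0.307 in NSG and 10.9% ± 0.242 in SG. The small subunit accounted for 4.43% ± 0.127 of TPM in NSG and 4.44% ± 0.0828 in SG, and the large subunit for 6.43% ± 0.184 in NSG and 6.44% ± 0.162 in SG.

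Within that share, levels per length were spread widely. Of the 31 core small-subunit genes, 24 had a mean of at least 1000 TPM in both groups, and of the 46 core large-subunit genes, 28 did. The top of the small subunit was Rps26 at 2941 ± 225 TPM in NSG and 2981 ± 194 TPM in SG, followed, by mean over all libraries, by Rps23 and Rps12. Rplp1, a protein of the acidic stalk that recruits elongation factors, led the large subunit with 3795 ± 141 TPM in NSG and 3789 ± 145 TPM in SG. Rpl10, which joins the large subunit late and completes the peptidyl transferase centre, had 2715 ± 70.6 TPM in NSG and 2824 ± 123 TPM in SG, and Rpl35, which sits at the exit tunnel, had 2803 ± 178 TPM in NSG and 2660 ± 105 TPM in SG. Among these leaders, the spread over libraries covers the differences between NSG and SG for Rps26 and Rplp1.

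The lowest core members were Rps6, Rps15a, Rps20 and Rps3 in the small subunit and Rpl22, Rpl21 and Rpl37 in the large one, all under 500 TPM in both groups. Rps15a had 72.5 ± 1.253 TPM in NSG and 72.3 ± 1.91 TPM in SG, with an effective length of 4988 bases, which is long for a ribosomal protein transcript. Effective length, the stretch over which a read can start, was derived from the ratio of counts to FPKM and is the authors' model of the gene. Rps20 had 178 ± 6.90 TPM in NSG and 184 ± 2.82 TPM in SG at 3298 bases. The low values per length of Rps15a and Rps20 therefore rest on the length assigned. For Rps6, the row holds only a small part of the reads that match its sequence, as described below.

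The number of members that passed the test depended on the scale. On TMM-scaled counts 12 of the 80 tested passed, and with the trend against transcript length removed 34 of 80 passed, 2 higher and 32 lower, beside 32.9% of all genes. Of the 83 members, 80 passed the filter on low counts. The 3 others, the tissue-restricted paralogs Rpl3l, Rpl10l and Rpl39l, had at most 8, 1 and 9 counts in any library. By edgeR's quasi-likelihood test at an adjusted p of 0.05, 12 of the 80 differed between NSG and SG, 7 higher and 5 lower, while 33.2% of all 11700 genes tested did (15.9% higher and 17.3% lower). The small subunit had 3 higher and 2 lower of 32, and the large subunit 4 higher and 3 lower of 48. The NSG and SG libraries did not overlap for 3 of the 80 members (Rpl3, Rpl7a and Rps6), against 30.6% of all genes. The median log2 change of the 80 was 0.038 (57 positive, 23 negative), 0.035 in the small and 0.044 in the large subunit, beside 0.0074 over all genes tested, and its sign turned with the length correction described below. Without single libraries this median ranged between 0.014 (without NSG4) and 0.065 (without NSG2), and was 0.020 without SG2 and 0.021 without SG3.

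The members' changes also lay close together. Outside Rps6, no tested member had a log2 change past 0.25 in either direction, and only Rps6, Rps21 and Rpl38 reached 0.2. For 69 of the 80, the 95% interval of the change lay within a 1.2-fold rise or fall. The other 11 were Rps6 and 10 that did not pass (Rpl31, Rpl32, Rpl34, Rpl35, Rpl37, Rpl38, Rps21, Rps25, Rps27 and Rps29), whose intervals reach past that size. Among the 1645 other genes with a mean CPM at least as high as the lowest core member (Rps6 left aside), 61.8% passed, with a median log2 change of -0.04. With the length trend removed, 62.9% of them passed, 346 higher and 688 lower. The members' median effective length was 569.97 bases, against 2984 bases for these abundant genes.

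**Figure D1:**
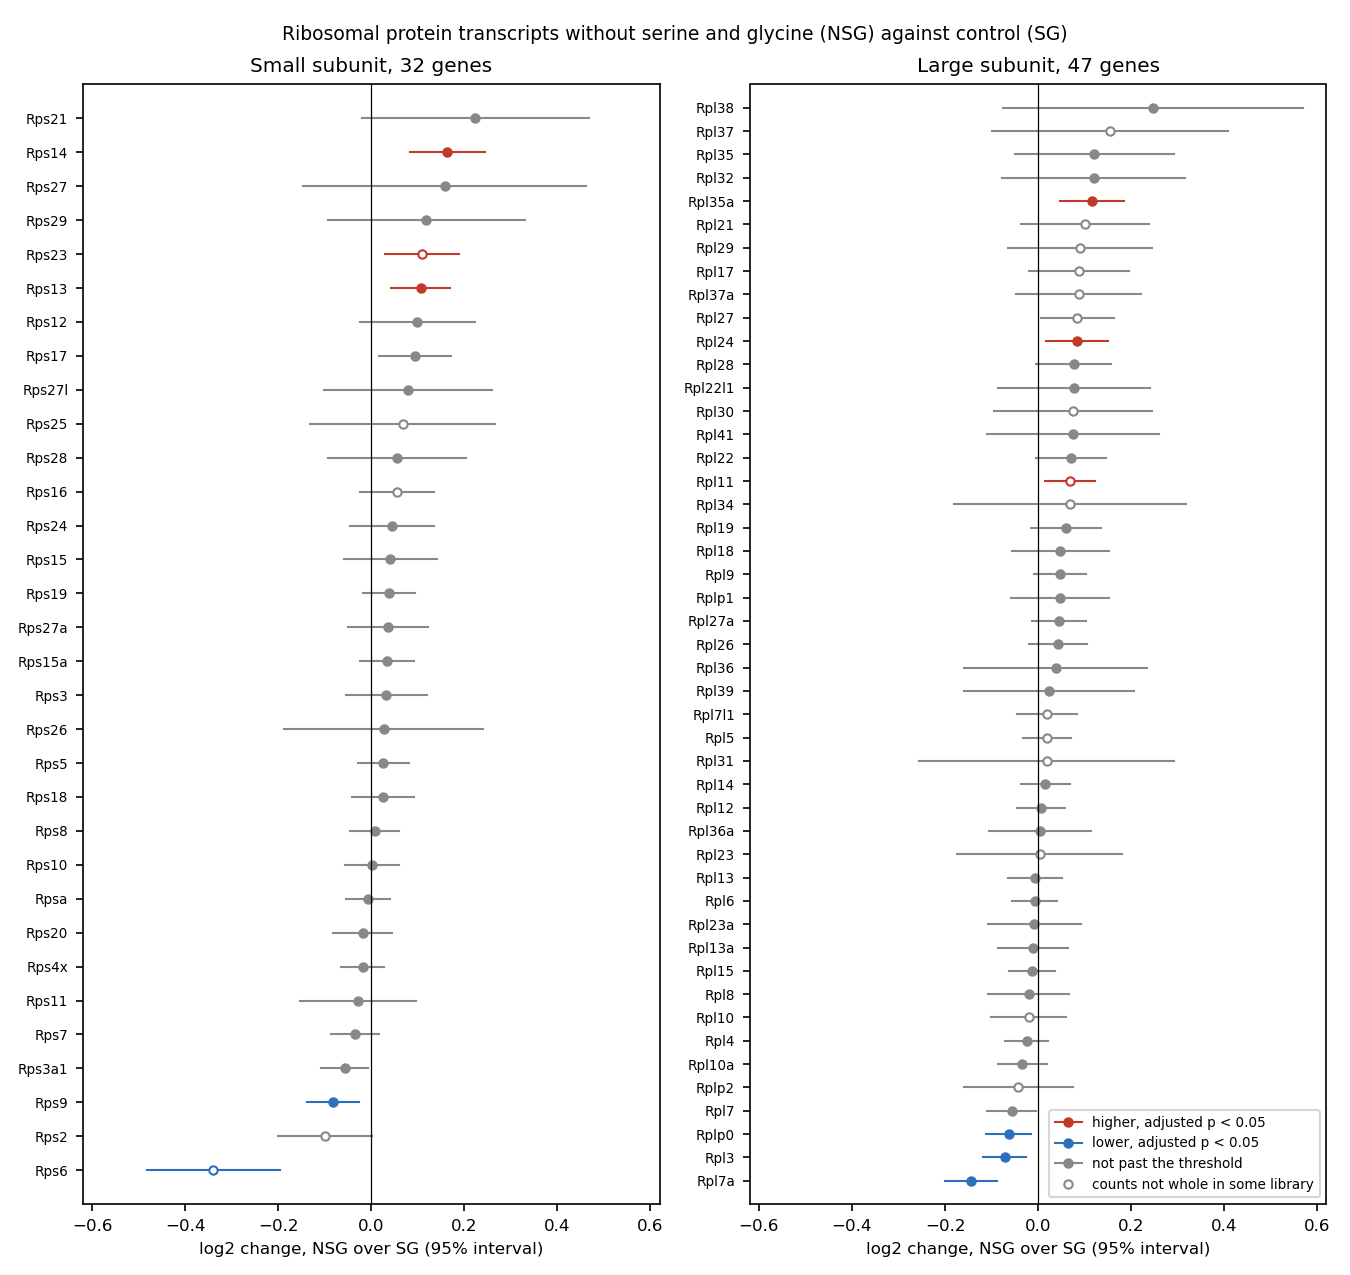
The log2 change of NSG over SG (x axis, 95% interval) for tested genes, the 32 of the small subunit on the left and 47 of the 48 of the large subunit on the right (1 is not drawn), with coloured points for an adjusted p under 0.05 and open points for counts that were not whole in some library. Most points lie within 0.2 of 0, Rps6 stands apart at -0.34, and the median of 0.04 over the 80 members turns to -0.05 when the trend with transcript length is removed.

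Rpl7a was the clearest difference. It encodes a large-subunit protein, and 3 small nucleolar RNA genes, which guide the modification of ribosomal RNA, lie within its gene (chr2:26910685-26913312). It had 574, 575, 592 and 592 CPM in NSG1 to NSG4, against 691, 638, 615 and 635 CPM in SG1 to SG4. Every NSG library lay below every SG library. The means were 583 ± 10.2 CPM in NSG and 645 ± 32.3 CPM in SG (log2 change -0.14, SE 0.03, adjusted p = 6.56e-05, edgeR). Rpl7a stayed lower and past the threshold in all 22 other settings tried, with log2 changes between -0.22 and -0.09.

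The other lower members were Rpl3, Rps9, Rplp0 and Rps6. Rpl3, whose product lies beside the peptidyl transferase centre, had 590, 607, 599 and 608 CPM in NSG1 to NSG4, against 635, 628, 626 and 638 CPM in SG1 to SG4. Its groups did not overlap either, by a narrow gap (log2 change -0.07, SE 0.02, adjusted p = 0.0136). Rps9, which helps to hold the messenger RNA entry site, had 548, 557, 575 and 610 CPM in NSG libraries, against 618, 612, 587 and 607 CPM in SG libraries. The fourth NSG library lay within the SG range (log2 change -0.08, SE 0.03, adjusted p = 0.0169). Rplp0, the base of the acidic stalk and a common reference gene in PCR, had 1311, 1327, 1315 and 1408 CPM in NSG libraries, against 1443, 1414, 1371 and 1374 CPM in SG libraries. Here too the fourth NSG library overlapped with SG (log2 change -0.06, SE 0.02, adjusted p = 0.0373). Leaving out single libraries ended the call in 5 of 8 cases for Rplp0, 4 of 8 for Rps9 and 1 of 8 for Rpl3. Removing each library's trend with mean expression ended it for all 3, with log2 changes of -0.01 for Rplp0, -0.03 for Rps9 and -0.02 for Rpl3.

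Rps6, the small-subunit protein that S6 kinases phosphorylate, had the largest log2 change of the members, and its row holds only a small part of the reads that match its sequence. It had 24.6, 26.9, 26.3 and 23.2 CPM in NSG1 to NSG4, against 32.04, 35.4, 27.0 and 33.4 CPM in SG1 to SG4. The groups did not overlap, though NSG2 and SG3 nearly met (log2 change -0.34, SE 0.07, adjusted p = 0.000520). The row of the identical Rps6-ps4 had 682, 623, 665 and 699 CPM in NSG libraries, against 684, 643, 691 and 711 CPM in SG libraries, and these overlapped (log2 change -0.03, SE 0.03, adjusted p = 0.507). The counts of both rows were not whole in any library, as happens when reads that match several places are divided between them. Rps6 received 3.65% of the sum of both rows in NSG and 4.48% in SG. The sum was 692 ± 31.0 CPM in NSG and 714 ± 26.9 CPM in SG, and it did not pass (log2 change -0.05, SE 0.03, adjusted p = 0.260). The call for Rps6 thus ends when the rows are summed, and the locus that made these reads cannot be told apart.

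**Figure D2:**
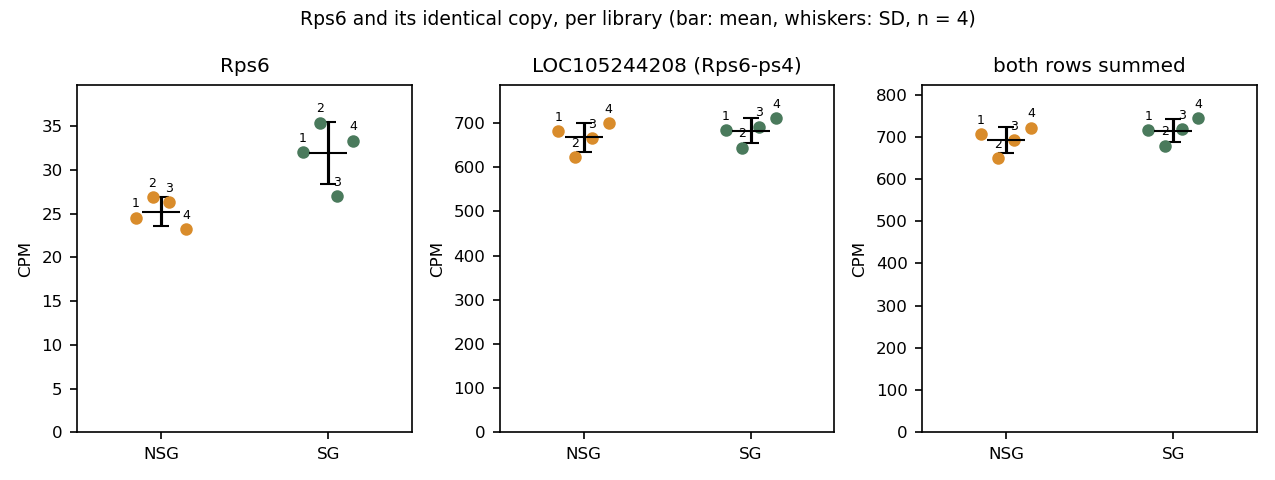
CPM (y axis, from 0) of Rps6, of the identical Rps6-ps4 row and of their sum in each library, NSG on the left and SG on the right, with numbers for the replicates and bars for the mean and SD (n = 4). Rps6 lay between 23.2 and 26.9 CPM in NSG and between 27.0 and 35.4 CPM in SG, whereas the ranges of the sum overlapped.

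Of the higher members, Rps14 had the largest change. Its product forms part of the small subunit's platform, and loss of a copy of the human gene is known from a form of myelodysplasia. It had 389, 343, 366 and 388 CPM in NSG1 to NSG4, against 316, 336, 348 and 327 CPM in SG1 to SG4. Only NSG2 fell within the SG range (log2 change 0.16, SE 0.04, adjusted p = 0.00304). The call held when any library was left out, while taking out the length trend left a log2 change of 0.06 that did not pass (adjusted p = 0.477). Rps13, which binds at the interface to the large subunit, had 222, 207, 219 and 232 CPM in NSG libraries, against 198, 200, 207 and 213 CPM in SG libraries. The ranges overlapped (log2 change 0.11, SE 0.03, adjusted p = 0.00773), and the sign turned to -0.0011 without the length trend. Rpl35a, a large-subunit protein mutated in some families with Diamond-Blackfan anaemia, had 152, 146, 165 and 163 CPM in NSG libraries, against 150, 145, 138 and 145 CPM in SG libraries. All NSG libraries but NSG2 lay above the SG range (log2 change 0.12, SE 0.03, adjusted p = 0.00739), and without the length trend the value was -0.0035.

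Rps23, which lies in the decoding centre, had 517, 494, 517 and 564 CPM in NSG libraries, against 483, 463, 480 and 512 CPM in SG libraries. The ranges overlapped (log2 change 0.11, SE 0.04, adjusted p = 0.0337), and the value was -0.00077 without the length trend. Its counts were not whole in 3 libraries. Rpl11, which with Rpl5 and the 5S RNA binds and restrains MDM2, had 380, 375, 391 and 410 CPM in NSG libraries, against 377, 369, 367 and 370 CPM in SG libraries. The ranges overlapped at one library (log2 change 0.07, SE 0.03, adjusted p = 0.0397), and the value was -0.04 without the length trend. Its partner Rpl5 did not pass (log2 change 0.02, SE 0.03, adjusted p = 0.616). Rpl24, from the bridge between the subunits, had 318, 294, 321 and 339 CPM in NSG libraries, against 307, 289, 302 and 303 CPM in SG libraries. The ranges overlapped (log2 change 0.08, SE 0.03, adjusted p = 0.0471), and the value was -0.01 without the length trend. Leaving out single libraries ended the call in 6 of 8 cases for Rpl24, 5 of 8 for Rpl11 and Rps23, 1 of 8 for Rpl35a and 0 of 8 for Rps13.

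**Figure D3:**
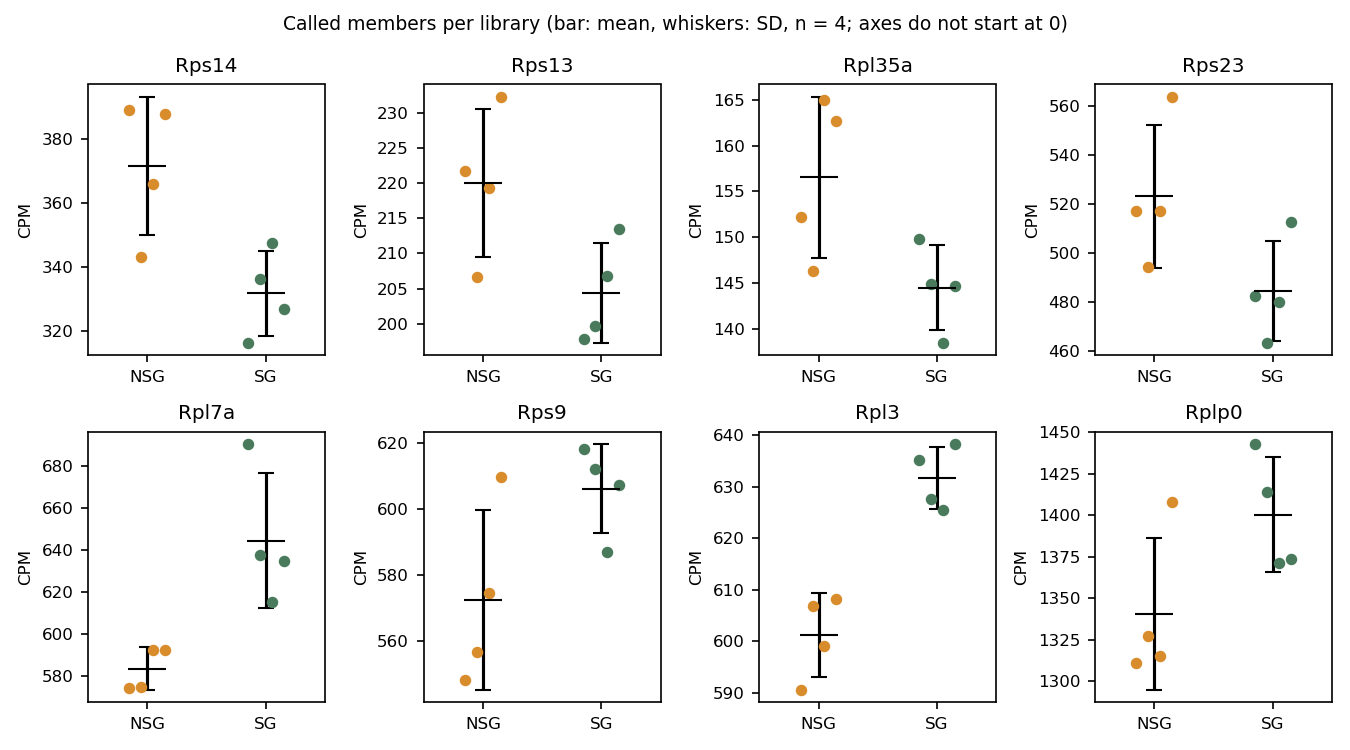
CPM (y axes, not from 0) per library of the higher members Rps14, Rps13, Rpl35a and Rps23 and the lower members Rpl7a, Rps9, Rpl3 and Rplp0, NSG on the left and SG on the right, with bars for the mean and SD (n = 4). Only Rpl7a and Rpl3 show no overlap between the groups, and the positive changes of Rps13, Rpl35a and Rps23 turn to -0.0011, -0.0035 and -0.00077 without the length trend.

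Several members with known special roles did not pass. Rplp1 and Rplp2, the stalk partners of Rplp0, had log2 changes of 0.05 (SE 0.05, adjusted p = 0.495) and -0.04 (SE 0.05, adjusted p = 0.596). Rps27a, made as a fusion with ubiquitin, had 0.04 (SE 0.04, adjusted p = 0.539), and Rps19, the gene most often mutated in Diamond-Blackfan anaemia, had 0.04 (SE 0.03, adjusted p = 0.318). Rpsa, which has also been described as a laminin receptor, had 1120 ± 37.0 CPM in NSG and 1126 ± 13.2 CPM in SG (log2 change -0.01, 95% interval -0.05 to 0.04). Rpl41, the smallest of the proteins, had 409 ± 39.3 CPM in NSG and 388 ± 20.8 CPM in SG (log2 change 0.08, 95% interval -0.11 to 0.26).

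The detected paralogs did not pass either. Rpl22l1 was at 66.0 ± 3.06 TPM in NSG and 64.5 ± 8.37 TPM in SG, and its parent Rpl22 at 196 ± 8.69 TPM in NSG and 191 ± 7.58 TPM in SG (log2 changes 0.08 and 0.07 on counts, adjusted p = 0.507 and 0.149). Rps27l, a target of p53, was at 363 ± 18.8 TPM in NSG and 353 ± 31.3 TPM in SG, below Rps27 at 2082 ± 273 TPM in NSG and 1937 ± 206 TPM in SG (log2 changes 0.08 and 0.16, adjusted p = 0.496 and 0.407). Rpl7l1 was at 86.4 ± 3.96 TPM in NSG and 87.1 ± 1.65 TPM in SG (log2 change 0.02), while Rpl7 was at 1382 ± 36.7 TPM in NSG and 1472 ± 33.6 TPM in SG (log2 change -0.06 on counts, adjusted p = 0.0934). Among the parents of the other paralogs, Rpl10 gave -0.02 on the log2 scale (adjusted p = 0.729) and Rpl39 gave 0.02 (adjusted p = 0.860). X-linked Rps4x had -0.02 (SE 0.02, adjusted p = 0.571).

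Transcript length moved with the changes. The 25 tested members with an effective length under 400 bases had a median log2 change of 0.08, and 24 of them were positive, although 1 passed. The 36 members between 400 and 800 bases had a median of 0.03 with 7 passing, and the 19 longer ones a median of 0.0037 with 4 passing, 3 of those lower. Over the 80 members, Spearman's rho between change and length was -0.49, and over all genes with a length it was -0.25, given as a description of genes that share libraries. Genes outside the family followed the same order, with medians of 0.13 for 110 genes under 400 bases, 0.10 for 494 between 400 and 800 bases and 0.0015 for 11015 longer ones. Of these other genes 22.7%, 36.0% and 33.3% passed in the 3 length classes, against 4%, 19.4% and 21.1% of the members. The 1645 other genes as abundant as the members had 12, 51 and 1582 genes in these classes. Their medians were 0.08, 0.04 and -0.05, the first 2 close to those of the members, and 33.3%, 52.9% and 62.3% of them passed. Rpl38 at 148 bases had 180, 135, 177 and 193 CPM in NSG libraries, against 151, 122, 146 and 156 CPM in SG libraries, and NSG2 lay among the SG values (log2 change 0.25, SE 0.13, adjusted p = 0.219). Rps21 had 190, 159, 188 and 215 CPM in NSG libraries, against 171, 147, 157 and 170 CPM in SG libraries (log2 change 0.22, SE 0.10, adjusted p = 0.149). Rpl38 and Rps21 were chosen after their values were seen.

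When each library's trend with length, drawn through all genes tested, was taken out, the balance among the members turned. Then 34 of 80 passed, 2 higher (Rps21 and Rps15a) and 32 lower, while 15.7% of all genes passed as higher and 17.2% as lower. Of the 1645 other genes as abundant as the members, 346 then passed as higher and 688 as lower, with a median log2 change of -0.04. Many passing as lower was thus not particular to the members. The small subunit had 2 higher and 12 lower, and the large subunit 0 higher and 20 lower. The median log2 change was -0.05 over the members and 0.0023 over all genes, and 67 of the 80 were negative. None of the 7 higher members kept its call, and all 5 lower ones did. Rplp2 at -0.17, Rpl7 at -0.13 and Rps4x at -0.09 were among those that then passed as lower (adjusted p = 1.77e-07, 1.53e-06 and 5.47e-04). Members made up 25 of the 135 tested genes under 400 bases, so they helped to set the trend that was removed. On TPM, which divides by length and rescales, limma called 10 members, 2 higher and 8 lower, and 28.7% of all genes, 10.9% higher and 17.8% lower, with medians of -0.00026 over the members and -0.02 over all genes. With each library's trend against mean expression removed instead, 23 members passed as higher and 2 as lower, beside 15.5% and 16.2% of all genes, and the members' median was 0.08. Of the 1645 other genes as abundant, 451 then passed as higher and 484 as lower, with a median of -0.0016. The members' share of higher calls was thus near that of these genes, while their share of lower calls was smaller. Which of these scales describes the cells was not tested.

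**Figure D4:**
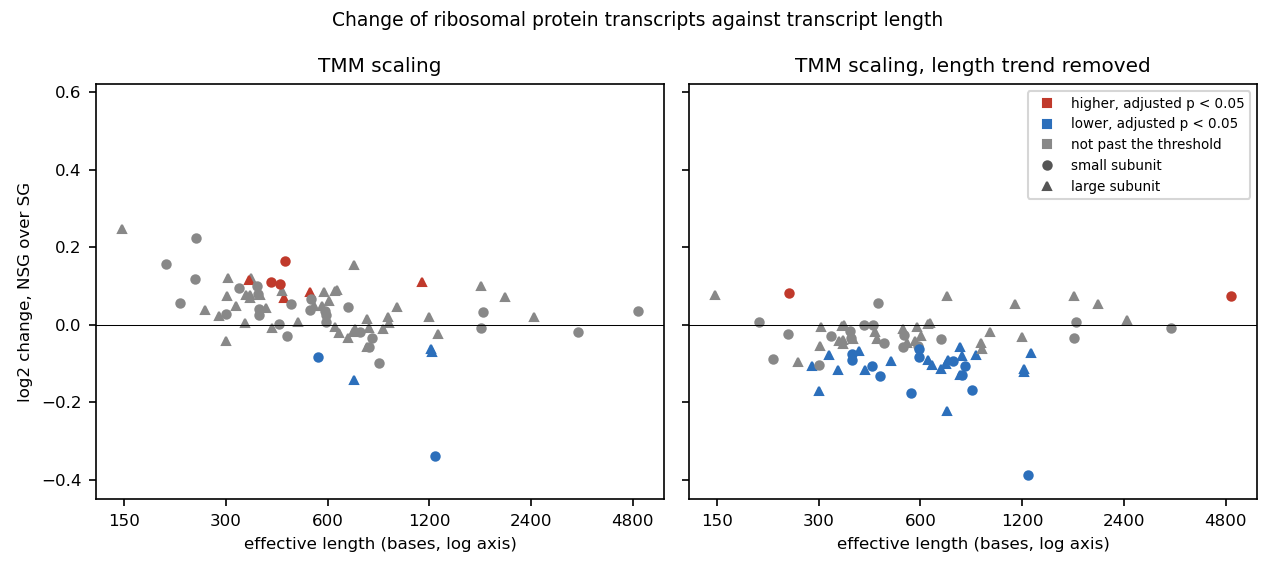
The log2 change of NSG over SG (y axis) against effective length in bases (log axis) for the 80 tested members, with TMM scaling on the left and with each library's length trend removed on the right. On the left, 24 of the 25 members under 400 bases are positive and 7 members pass as higher and 5 as lower. On the right, 67 of 80 are negative and 2 pass as higher and 32 as lower. Of the 1645 other genes as abundant, not drawn, 346 pass as higher and 688 as lower on that scale.

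The members also moved together from library to library within a group. In NSG2, 76 of the 80 were below their NSG mean, by a median of -0.09 on the log2 scale, and in NSG4, 73 were above it, by 0.07. In the SG group, 68 were above their mean in SG1 and 61 in SG4, while 63 were below it in SG2 and 70 in SG3. The span between library medians was 0.16 in NSG and 0.08 in SG, both wider than the median change of 0.04 between the groups. Short genes outside the family had medians of -0.11 in NSG2 and 0.09 in NSG4, the same order. Without NSG2, 25 members passed, 22 of them higher, beside 31.9% of all genes, 15.2% higher. Without NSG4, 13 passed, 5 of them higher, beside 31.2% of all genes, 14.7% higher. With both left out 20 passed, 14 higher and 6 lower, beside 28.8% of all genes, 13.5% higher.

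**Figure D5:**
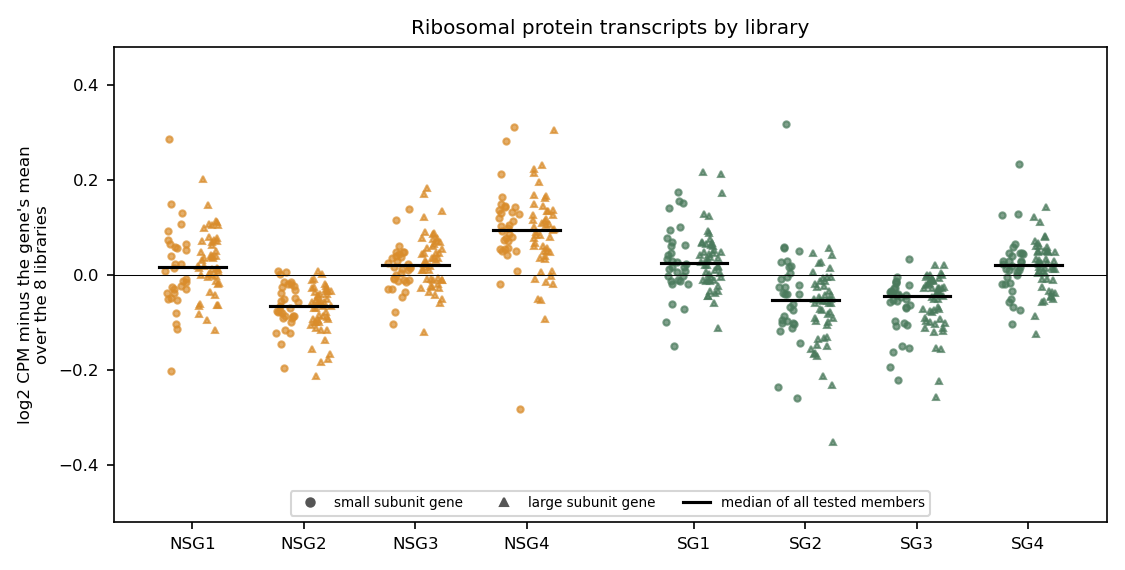
The log2 CPM (with 0.5 added) of each tested member minus its mean over the 8 libraries (y axis), by library, NSG on the left and SG on the right, with circles for small-subunit genes, triangles for large-subunit genes and a line at the median. The medians range from -0.06 in NSG2 to 0.10 in NSG4 and from -0.05 in SG2 to 0.03 in SG1, so libraries of 1 group differ by more than the groups do.

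Uneven division of reads touched 20 of the 80 tested members, whose counts were not whole in some library, 12 of them in all libraries. Of the 60 with whole counts throughout, 9 passed (5 higher and 4 lower), or 15%. This is the same share as over all 80, beside 33.2% of all genes. Rps6 is described above. Of Rpl37 and its copy, Rpl37 received 82.9% of the summed counts in NSG and 81.3% in SG, and of Rpl21 and its copies, Rpl21 held 82.7% in NSG and 83.2% in SG. Most of the rest was BC004004, with 1328 to 1594 counts that were whole in all libraries. The other copy, Gm10045, had 65.9 to 86.4 counts, not whole in any library. For the remaining pairs the member held at least 96.3% in either group. Summing the copies left 11 members past the threshold, 7 higher and 4 lower, beside 33.2% of all genes, 15.8% higher and 17.3% lower.

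Genes that share the ribosome or its regulation, but not the name pattern, were set beside the members. Over all 205 tested, 11 were higher and 41 lower, or 25.4% in all, below the 33.2% of all genes. After removal of the length trend 12 were higher and 50 lower, or 30.2%, beside 32.9% of all genes. Rack1, a scaffold protein on the small subunit, was lower, with 749 ± 14.97 CPM in NSG and 790 ± 12.4 CPM in SG (log2 change -0.08, SE 0.02, adjusted p = 0.00875), and its groups did not overlap. Fau, which encodes a ribosomal protein fused to a ubiquitin-like protein, did not pass (log2 change 0.10, SE 0.07, adjusted p = 0.390). Of 23 elongation factors and other TOP messenger RNAs, 1 was higher and 10 lower (47.8% in all, against 33.2% of all genes and 61.8% of the other genes as abundant as the members), and their median log2 change of -0.04 equalled that of those abundant genes to 2 decimals. Eef1g, a subunit of the exchange factor that reloads elongation factor 1A, had 493 ± 4.53 CPM in NSG and 583 ± 12.7 CPM in SG (log2 change -0.24, adjusted p = 3.18e-11). Eef2, the translocase, and Pabpc1, which binds poly(A) tails, had -0.15 each (adjusted p = 2.69e-07 and 4.45e-07). After removal of the length trend, 0 of the 23 were higher and 14 lower.

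In the other lists the share that passed lay below the 33.2% of all genes, except in a mixed list of regulators of TOP messenger RNAs, S6 kinases and further genes. Of 28 initiation factors, 2 were higher and 5 lower, among them the scaffold factor Eif4g2 (log2 change -0.16, adjusted p = 2.11e-07) and Eif4ebp2, a repressor of cap binding (-0.16, adjusted p = 1.12e-05), while Eif2s2, a subunit of the factor that carries initiator tRNA, was higher (0.11, adjusted p = 0.00287). Of 60 nucleolar assembly factors, 3 were higher and 10 lower (21.7% in all), with a median of -0.03. Nucleolin (Ncl) changed by -0.16 (adjusted p = 8.22e-07), Nolc1, a nucleolar phosphoprotein, by -0.20 (adjusted p = 9.81e-07) and Sdad1 by -0.25 (adjusted p = 5.99e-06). Of the 22 genes in the mixed list, 2 were higher and 7 lower (40.9% in all). Beside regulators of TOP messenger RNAs and S6 kinases, it held Myc, Mycn, Max and Mdm2. Of these, Mycn, Max and Mdm2 were among the genes that passed, so the share does not describe the regulators alone. Mycn, of the MYC family, had 206 ± 6.14 CPM in NSG and 248 ± 7.73 CPM in SG (log2 change -0.27, adjusted p = 2.39e-10), Rps6ka1, which phosphorylates Rps6, changed by -0.18 (adjusted p = 4.82e-07), and Larp1, which binds TOP motifs, by -0.18 (adjusted p = 7.85e-06).

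Of 14 genes in a list for chaperones and importers of ribosomal proteins, 1 was higher and 3 lower (28.6% in all). The list also held Acd, which belongs to neither kind and did not pass. Importin beta (Kpnb1) changed by -0.20 (adjusted p = 5.27e-09), Tnpo1 by -0.12 and Ipo9 by -0.13. Of 33 genes of RNA polymerases I and III and their factors, 1 was higher and 2 lower (9.09% in all). The higher one was Gtf3a, which binds the 5S RNA gene (log2 change 0.25, adjusted p = 0.000166), with counts that were not whole in 7 libraries, and the lower ones were Gtf3c1 (-0.18) and Taf1d (-0.19). Of 21 genes of ribosome rescue and quality control, 1 was higher and 3 lower (19.05% in all). Ltn1, the ubiquitin ligase for stalled nascent chains, had 99.1 ± 4.79 CPM in NSG and 122 ± 7.29 CPM in SG (log2 change -0.30, adjusted p = 3.07e-07), Edf1, which marks collided ribosomes, was higher (0.26, adjusted p = 0.000196), and Vcp, which extracts the tagged chains, was lower (-0.06, adjusted p = 0.0409).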

How the data were processed

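The authors deposited 1 table with estimated counts, FPKM and TPM for each of the 8 libraries. The submitters' processing notes name BWA, Bowtie2, RSEM and the build GRCm38.p6, without roles or versions, and per the labels' protocols Trizol RNA was captured with oligo-dT beads. Estimated counts, of which 8.06% to 8.47% per library were not whole (tolerance 1e-06), were rounded and tested. FPKM, as deposited, gave only effective lengths, and the deposited TPM gave levels, shares and 1 alternative. The 6 columns of averages were not used.

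All genes passing edgeR's filter (minimum count 10, minimum total 15) were fitted in edgeR 4.0.16 (R 4.3.3) with TMM scaling and the robust quasi-likelihood F test, 4 libraries against 4, with Benjamini-Hochberg adjustment over 11700 genes at 0.05. SE derive from the F statistic. Trends with length or mean expression were removed by lowess offsets (span 0.3). Further alternatives were other scalings and filters, the replicate number as a block, each library left out, limma 3.58.1 (voom, or TPM with 1 added) and DESeq2 1.42.0. Copies were found with blastn 2.17.0 among GENCODE transcripts, and starts came from RefSeq. Steps were tested on simulated data. A total of 3 counts, about the upper 95% limit for a count of 0, equals 0.165 to 0.171 CPM, for counting error only.

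Members and gene lists were chosen with earlier results of these data known. Named members were the 4 smallest adjusted p per subunit and direction, the 3 highest TPM per subunit, paralog pairs and a set of genes with special roles, and of the other lists up to 3 each. Summing copies, and leaving out NSG2 with NSG4, were added after seeing the data. Some genes that these rules selected are counted but not reported here by name.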

Additional observations from a re-analysis of the deposited data

Results flagged for a closer look

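In 78 groups of 4 libraries screened, 4 held a library far from the other 3, and chance alone marks about 1 group in 20. Rplp0 had 1408 CPM in NSG4, against 1311 to 1327 CPM in the other NSG libraries, and Rplp1 had 750 CPM in NSG4, against 659 to 672 CPM in the others. Rpl22 had 203 CPM in NSG2, against 228 to 229 CPM in the other NSG libraries, and 225 CPM in SG4, against 205 to 209 CPM in the other SG libraries. NSG4 is the library in which 73 of 80 members lay above their group mean, and NSG2 the one in which 76 lay below it.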

How the results depend on the processing

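The counts of 12 members (7 higher, 5 lower; 5 small, 7 large) stayed within 1.5 times under DESeq2 size factors, library size alone, TMM without the members, a mean of 5 CPM, DESeq2 and summed copies. Of all genes, 23.3% passed under DESeq2 and 33.1% to 36.4% under the others. Leaving out 1 library gave 6 to 25 members, 2 to 22 higher, 2 to 8 lower, 3 to 8 small and 2 to 17 large, and a median of 0.014 to 0.065. Between 28.7% and 31.9% of all genes then passed. Without NSG2 and NSG4 20 passed (14 higher, 9 small, 11 large), beside 28.8% of all genes, 13.5% higher. Without a filter 21 of 83 passed (13 higher, 8 lower, 9 small, 12 large), beside 22.4% of all genes, 10% higher and 12.4% lower. At an adjusted p of 0.01, 5 passed (3 higher, 2 lower, 3 small, 2 large), beside 23.6% of all genes, 10.6% higher and 13.1% lower. Limma-voom called 11 higher and 9 small, beside 15.6% of all genes higher and 32.6% in either direction. Limma on TPM called 2 higher, 8 lower and 4 large. The length trend removed gave 34 (2 higher, 32 lower; 14 small, 20 large) with a median of -0.048, and reversed Rps13 (-0.0011), Rps23 (-0.00077), Rpl35a (-0.0035), Rpl11 (-0.036) and Rpl24 (-0.012). The mean expression trend removed gave 25 (23 higher, 2 lower; 11 small, 14 large). Of the 1645 other genes as abundant, 62.9% passed with the length trend removed and 56.8% with the mean expression trend removed. The cause of these shifts was not tested. Within-group deviations of same-numbered libraries correlated at -0.05, 0.05, 0.05 and -0.11 over 11700 genes. A correlation over all genes can miss pairing that touches only some, so it does not show if the numbers pair the samples. Relative to the mean over the 8 libraries, the members' medians in NSG and SG were 0.02 and 0.03 for replicate 1. They were -0.06 and -0.05 for replicate 2, 0.02 and -0.04 for replicate 3, and 0.10 and 0.02 for replicate 4. The replicate block moved the members to 23 (19 higher, 8 small, 15 large). All genes moved to 3655 (31.2%, with 15.1% higher). All genes numbered 2767 to 3901 over every setting. Of 682 repeats of single members, 596 kept sign and side of the threshold, 59 lost it, 22 gained it and 5 reversed. Precision was lowest for short members: under 400 bases the median SE was 0.07, and 24 of 25 did not pass. Of other genes under 400 bases, 22.7% passed.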
